A study of Drosophila melanogaster with 16 samples.

Results

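The brain and ring gland complex (BRGC) of control larvae was compared with the rest of the control body, to see which transcripts set the neuroendocrine preparation apart from the tissues it signals to. The 8 libraries were chosen by their labels alone, as 4 control BRGC and 4 control body libraries among the 16 of the series. All came from untreated wandering larvae of the last instar of the w[1118] background strain, and the methods describe the 4 libraries of each group as biological replicates. The other 8 libraries came from dfr14 larvae. These larvae carry a deletion behind the first stop codon of the POU factor gene dfr (listed as vvl). The dfr14 values are shown here only in a side-by-side view near the end. The dfr14 libraries nonetheless counted, together with the controls, toward which genes are listed for each tissue. Reads were joined by gene ID, which gave 9256 genes listed for both tissues, of 12984 listed for either. A further 475 genes were listed only for the BRGC and 3253 only for the body, and these are described apart. BRGCs and bodies were taken from different larvae as separate experiments, and the body samples held no BRGC, mouth hooks or salivary glands by the methods. Tissue and occasion of collection therefore cannot be told apart, and how many larvae went into a library and whether the ventral nerve cord or eye discs were kept with the brain are not given in the sources used here. The genotype tag of the sample records follows the tissue and contradicts the sample titles, which were followed.

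The ring gland sits on the larval brain and fuses 3 endocrine tissues. Its prothoracic gland turns dietary sterol into ecdysone, its corpora allata make juvenile hormones, and its corpora cardiaca release adipokinetic hormone, which mobilises stored energy from the fat body. Neurosecretory cells of the brain project onto the gland and time its output, and peripheral organs such as fat body, gut and tubules convert ecdysone into the active 20-hydroxyecdysone. At the wandering stage the brain also holds dividing neuroblasts and the growing optic lobes, while the body is dominated by fat body, gut, muscle and epidermis that prepare for metamorphosis.

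Depth was similar in the groups, with 20458363 to 30118366 reads in BRGC libraries and 17759238 to 23001284 reads in body libraries. Levels are given as CPM (reads of a gene scaled to a common library size), scaled over the 8 libraries together by TMM factors of 1.21 to 1.25 in BRGCs and 0.751 to 0.846 in bodies. Log2 fold changes are BRGC over body and come from limma with Benjamini-Hochberg adjustment over the 9256 genes. Library numbers follow the order of the deposited columns, which name no replicate. The tissue labels held for a neuronal and a fat body marker. The pan-neuronal gene elav had 307, 404, 485 and 368 CPM in the BRGC libraries, against 23, 23.3, 16.1 and 21.6 CPM in the body libraries. The fat body storage protein gene Lsp2 had 24.6, 78.5, 9.79 and 142 CPM in the BRGC libraries, against 24402, 20778, 25665 and 25528 CPM in the body libraries. Not every marker ran with its tissue, as the ring gland gene sro was lower in the BRGC (-1.48) and the hemocyte gene Hml was not called (0.57). These markers check the tissue and not the genotype of a library. Several libraries stood apart within their tissue. Body library 4 held 0 reads of all 12 genes of the Y-linked list, of which Pp1-Y1 had 0 reads in every body library. The Y chromosome had 16 genes listed only for the body and 1 listed for both tissues, and those outside the list were not checked. Body library 4 also held 14.7 summed CPM of sperm and male germ line genes, against 1151 to 3270 CPM in the other body libraries. It had 1685 genes at 0 reads, against 32 to 97 in the other body libraries. Body library 3 held 18354 summed CPM of salivary gland and glue genes, against 216 to 1934 CPM in the others. BRGC library 2 held 8586 summed CPM of fat body genes, against 1699 to 2509 CPM in the other BRGC libraries. The BRGC libraries were the more alike, with a median SD of 0.17 log2 units per gene, against 0.27 in bodies. Pearson correlations across genes ran from 0.96 to 0.98 among BRGC libraries and from 0.88 to 0.99 among body libraries, and were 0.49 to 0.63 between the tissues (genes are not independent replicates). In bulk RNA a lower level can come from fewer cells of a type or from less RNA per cell, and these cannot be told apart.

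**Figure D1:**
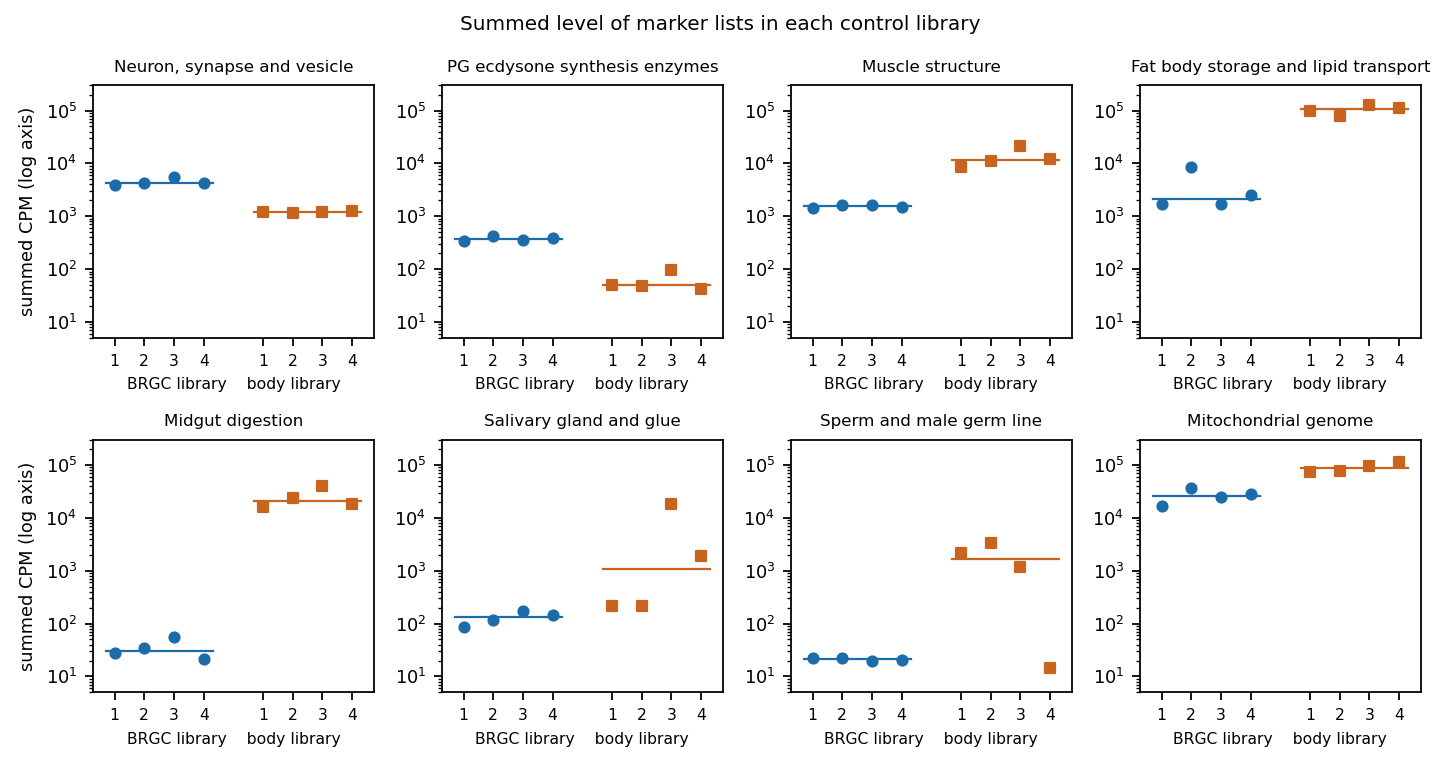
Summed CPM (log axis) of the genes of 8 marker lists in each of the 4 control BRGC libraries (blue circles) and 4 control body libraries (orange squares), numbered by place in the table, with the median of each tissue as a line. Each sum covers only the genes listed for that tissue. These were 6 in BRGCs and 15 in bodies for glue genes, and 4 and 23 for male germ line genes. Part of the gap between tissues in such lists therefore comes from genes not listed for the BRGC. Glue genes reach 18354 CPM in body library 3 and male germ line genes fall to 14.7 CPM in body library 4, while the neuronal and prothoracic gland lists are higher in every BRGC library than in any body library.

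Most of the shared transcriptome differed between BRGC and body. Of the 9256 genes, 3464 were higher and 3020 lower in the BRGC at an adjusted p under 0.05, which is 70.1% of the genes tested (37.4% higher, 32.6% lower). Because so many genes passed, a second rule asked for a difference beyond 2-fold (limma treat, adjusted p under 0.05). It left 980 genes higher and 1345 lower in the BRGC, 25.1% of those tested (10.6% and 14.5%). The 4 BRGC libraries did not overlap the 4 body libraries in 6097 genes (65.9%). The split between directions rested on the scaling. With library size alone, the median gene moved to a log2 fold change of 0.64, from 0.06 with TMM, and 5168 genes were higher and 1907 lower (2258 and 1012 beyond 2-fold). Directions below are relative to TMM scaling. Counts within gene lists are to be read beside the shares of all genes tested. These were 37.4% higher and 32.6% lower by the first rule, and 10.6% and 14.5% beyond 2-fold.

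**Figure D2:**
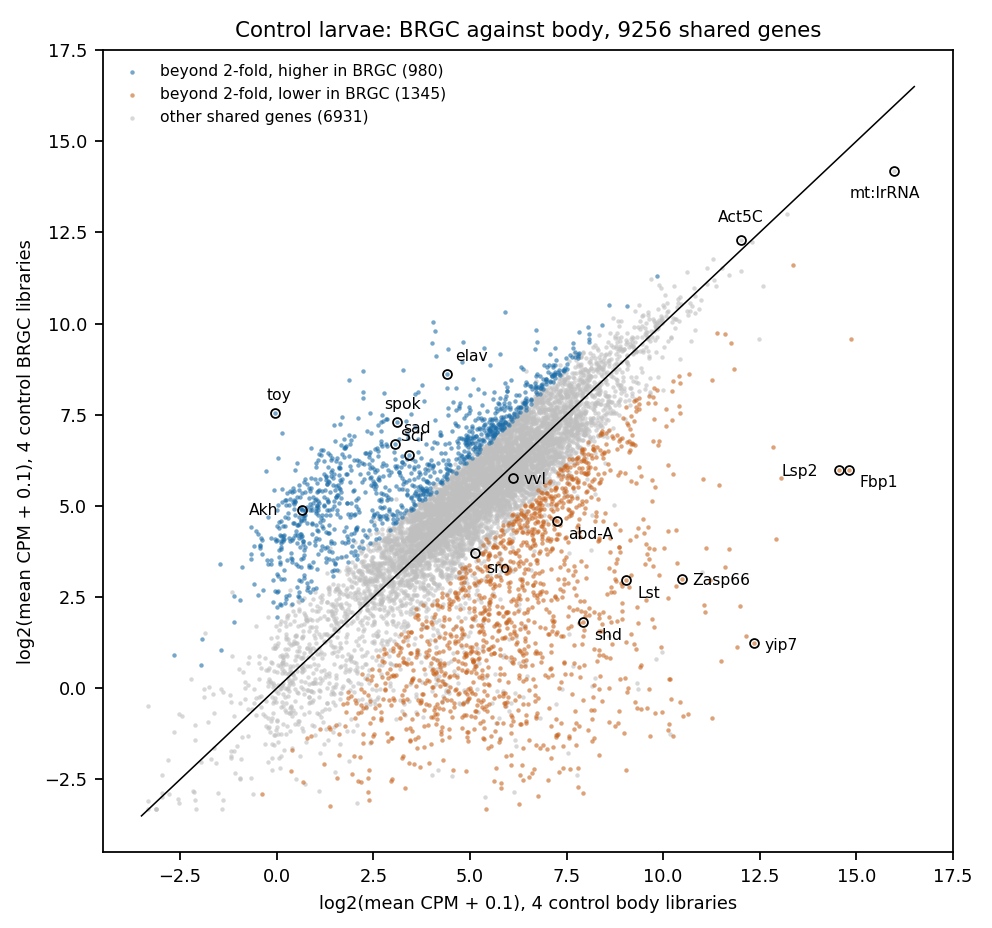
Mean level of each shared gene in control BRGC libraries (y axis) against control body libraries (x axis), both as log2(mean CPM + 0.1) over 4 libraries. Blue points are the 980 genes beyond 2-fold higher in the BRGC, orange points the 1345 beyond 2-fold lower, and grey points all others. The line marks equal levels, and circles mark genes described in the text.

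Several regulators of neural development were among the genes that differed most toward the BRGC. The largest differences with at least 20 CPM belonged to toy, a Pax6 gene of the eye and brain (7.73), nerfin-1, a zinc finger factor of differentiating neurons (7.01), scro, an Nkx2-type homeobox gene (6.95), the non-coding locus CR43283 (6.55), the temporal neuroblast factor cas (6.52) and the RNA-binding protein gene Rbp6 (6.50). Dscam3 (6.35), dati (6.01), CG3822 (5.99), pros (5.97), gogo (5.95) and Dscam2 (5.94) followed. toy lies on chromosome 4 (989725 to 1007922, plus strand, BDGP6.54) and had 185, 209, 179.8 and 174 CPM in the BRGC libraries, against 1.33, 1.06, 0.347 and 0.768 CPM in the body libraries. nerfin-1 had 314, 358, 397 and 321 CPM in the BRGC libraries, against 6.67, 3.34, 0.521 and 3.67 CPM in the body libraries. In both genes the BRGC and body libraries were far apart and did not overlap.

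The largest differences in the other direction included several digestive enzymes. yip7 (-12.40), epsilonTry (-12.17), Jon65Aiii (-11.92) and Jon65Aiv (-11.91), all serine proteases of digestion, and the lipase-family gene mag (-11.44) were joined by CG10912 (-12.35), Muc96D (-11.67), Ag5r2 (-11.61), CG11892 (-11.54), CG3868 (-11.40), CG10910 (-11.28) and CG8997 (-11.02). yip7 had 0.293, 1.02, 7.58 and 0.135 CPM in the BRGC libraries, against 3596, 5356, 7948 and 3955 CPM in the body libraries. BRGC library 3 had the highest of the 4 low BRGC values, and without it the log2 fold change of yip7 was -13.42. The most abundant transcripts differed in kind. In both tissues the mitochondrial large ribosomal RNA mt:lrRNA led, with 12178, 25514, 17348 and 18924 CPM in the BRGC libraries, against 53286, 52899.8, 67033 and 83786 CPM in the body libraries (log2 fold change -1.82 ± 0.48 (SE), adjusted p = 0.0085, and -1.58 with an adjusted p of 0.13 without body libraries 3 and 4). The translation factor gene eEF1alpha1 (8272 CPM in BRGCs and 9373 CPM in bodies), the actin gene Act5C and the translation factor gene eEF2 (4846 CPM in BRGCs and 5041 CPM in bodies) came next in BRGCs. In bodies the next places went to the storage protein gene Lsp1gamma (761 CPM in BRGCs and 29816 CPM in bodies), to Fbp1, the receptor that takes storage proteins up into the fat body (63.8 CPM in BRGCs and 28618 CPM in bodies), and to Lsp2. The 10 most abundant genes took 6.33 to 7.67% of the reads of a BRGC library and 13.7 to 19.3% of those of a body library.

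Genes of ecdysone synthesis were higher in the BRGC, with 1 exception. Of the 6 measured enzymes of the prothoracic gland, 5 were higher in the BRGC and all 5 passed the 2-fold rule, while the sixth, sro, was lower. The median log2 fold change of the list was 3.95, against 0.06 over all genes. spok, a P450 of the early part of the pathway (chromosome arm 3R, 3322810 to 3354486), had 110.4, 197, 156 and 162 CPM in the BRGC libraries, against 2.73, 3.45, 27.9 and 0.274 CPM in the body libraries (log2 fold change 5.60 ± 1.1 (SE), adjusted p = 0.0018). Body library 3 was the highest body library for all 6 enzymes. For spok the log2 fold change was 6.60 without it and 4.56 without body library 4. nvd, the oxygenase that takes the first step from cholesterol, had 17.6, 31.5, 23.5 and 25.3 CPM in the BRGC libraries, against 1.33, 1.45, 5.15 and 0.768 CPM in the body libraries (log2 fold change 3.77 ± 0.51 (SE), adjusted p = 0.0002). phm, the 25-hydroxylase, had 78.5, 65.9, 53.2 and 80.5 CPM in the BRGC libraries, against 2.8, 2.95, 7.41 and 3.56 CPM in the body libraries (log2 fold change 4.13 ± 0.31 (SE), adjusted p = 6.4e-06). dib, which adds the next hydroxyl group, had 12, 12.6, 10.7 and 6.73 CPM in the BRGC libraries, against 0.2, 0.39, 2.32 and 0.274 CPM in the body libraries (log2 fold change 4.14 ± 0.64 (SE), adjusted p = 0.00046), and sad, which completes ecdysone, had 108, 96.9, 101 and 109 CPM in the BRGC libraries, against 8.07, 5.46, 13.8 and 5.37 CPM in the body libraries (log2 fold change 3.76 ± 0.28 (SE), adjusted p = 6.5e-06). For each of these 5 genes every BRGC library was above every body library.

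sro, a short-chain dehydrogenase placed in the same pathway (chromosome arm 3R, 29794597 to 29795805), ran the other way. It had 16.9, 13.8, 8.46 and 12.4 CPM in the BRGC libraries, against 36, 34.1, 38.5 and 31.5 CPM in the body libraries (log2 fold change -1.48 ± 0.20 (SE), adjusted p = 0.00023), so that every body library was above every BRGC library, and the difference did not pass the 2-fold rule. It passed that rule without BRGC library 1, with RLE factors and over the union of the tables. It kept this direction under all alternatives, between -1.62 and -0.90. Per kilobase of exon, the BRGC levels of the enzymes were 88.5 CPM for spok, 58.6 for sad, 31.6 for phm, 11.2 for sro and 5.32 for dib, which is a level scale and not a difference. nvd had no length in the annotation.

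Regulators of the gland differed less than its enzymes. Of 15 measured genes of prothoracic gland regulation and sterol transport, 10 were higher and 1 lower, with 4 beyond 2-fold (median log2 fold change 0.64). Those 4 were the zinc finger gene mld (1.42 ± 0.12, SE), needed for nvd and spok transcription, the zinc finger gene woc (1.51 ± 0.08), the receptor tyrosine kinase gene Alk (2.11 ± 0.20) and its ligand gene jeb (4.83 ± 0.55). The 1 lower gene was vvl, which encodes the POU factor Dfr and has long been known for its roles in trachea and brain. vvl had 53, 53.5, 55 and 57.1 CPM in the BRGC libraries, against 70, 71.4, 62.8 and 71.1 CPM in the body libraries (log2 fold change -0.33 ± 0.08 (SE), adjusted p = 0.0044), so it was expressed at nearly the same level in both tissues, and with library size alone the sign turned (0.25).

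The other endocrine parts of the ring gland were represented by few transcripts. jhamt, which encodes the methyltransferase of juvenile hormone synthesis, had 12.5, 15.3, 8.99 and 9.4 CPM in the BRGC libraries, against 1.07, 0.502, 2.61 and 0.713 CPM in the body libraries (log2 fold change 3.37 ± 0.46 (SE), adjusted p = 0.00021). It was the only gene of 9 tested juvenile hormone and isoprenoid genes that was beyond 2-fold higher, and Jheh3, a juvenile hormone epoxide hydrolase, was beyond 2-fold lower (-3.44 ± 0.68). Akh, the hormone of the corpora cardiaca, had 36.4, 30.7, 18.6 and 32.2 CPM in the BRGC libraries, against 1.8, 0.334, 3.42 and 0.384 CPM in the body libraries (log2 fold change 4.75 ± 0.68 (SE), adjusted p = 0.00028). Lst, which encodes limostatin, a peptide known from the same cells that restrains insulin release, ran strongly the other way with 6.05, 12.4, 5.32 and 6.96 CPM in the BRGC libraries, against 556, 455, 546 and 559.8 CPM in the body libraries (log2 fold change -6.17 ± 0.24 (SE), adjusted p = 3.6e-07). The body libraries of Lst varied little and stood far above every BRGC library.

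Genes that convert, degrade or export ecdysteroids were lower in the BRGC. shd, the P450 that makes 20-hydroxyecdysone from ecdysone, had 1.97, 7.45, 2.3 and 1.99 CPM in the BRGC libraries, against 262, 204, 263 and 248 CPM in the body libraries (log2 fold change -6.36 ± 0.40 (SE), adjusted p = 2.5e-06). Cyp18a1, which inactivates the hormone, had 0.666, 0.741, 2.22 and 1.72 CPM in the BRGC libraries, against 9.87, 14.8, 17.1 and 14.1 CPM in the body libraries (log2 fold change -3.44 ± 0.40 (SE), adjusted p = 8.2e-05), and the transporter gene E23 had 15.9, 20.8, 49.2 and 27 CPM in the BRGC libraries, against 316, 182, 109 and 188 CPM in the body libraries (log2 fold change -2.84 ± 0.40 (SE), adjusted p = 0.00026). The importer gene Oatp74D did not differ beyond its error (log2 fold change 0.23 ± 0.15 (SE), adjusted p = 0.19). By transcript level, the enzymes up to ecdysone were thus higher in the BRGC, sro excepted, and the enzyme that makes 20-hydroxyecdysone was lower there.

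The transcriptional response to ecdysone did not separate the tissues as a group. Of 18 tested receptor and response genes 2 were higher and 7 lower, and only Eip63F-1 (-3.92 ± 0.35) and Eip71CD (-1.79 ± 0.29), both lower, passed the 2-fold rule. Only 1 gene passed it in the lower direction without any 1 BRGC library, without body library 4, with voom weights and with library size alone. The nuclear receptor gene Hr3 had 1.86, 8.89, 54.5 and 35.1 CPM in the BRGC libraries, against 48.3, 36.8, 3.65 and 52.7 CPM in the body libraries, with BRGC library 1 and body library 3 lowest. Hr4 had 15.9, 46.1, 162 and 104.3 CPM in the BRGC libraries, against 189, 127, 9.61 and 108 CPM in the body libraries, with the same libraries lowest. Neither differed between the tissues beyond its error (-0.85 ± 1.2 with an adjusted p of 0.55 for Hr3, -0.25 ± 1.04 with 0.84 for Hr4). Eip78C had 17.6, 29, 75.9 and 38.8 CPM in the BRGC libraries, against 461, 359, 30.6 and 366 CPM in the body libraries (log2 fold change -2.56 ± 0.87 (SE), adjusted p = 0.027), and without body library 3 its log2 fold change was -3.54 (adjusted p = 0.00017), while its call was lost without any 1 of BRGC libraries 1, 2 and 4 and body libraries 1, 2 and 4. The receptor gene EcR was modestly lower in BRGCs (-0.63 ± 0.10), and its partner usp did not differ beyond its error (0.03 ± 0.11, adjusted p = 0.84). br, an early ecdysone gene, carries unlike IDs in the tables and was not tested. Its main entry had 831, 1202, 1554 and 1213 CPM in the BRGC libraries and 1449.7, 889, 665 and 708 CPM in the body libraries, on the shared scale.

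**Figure D3:**
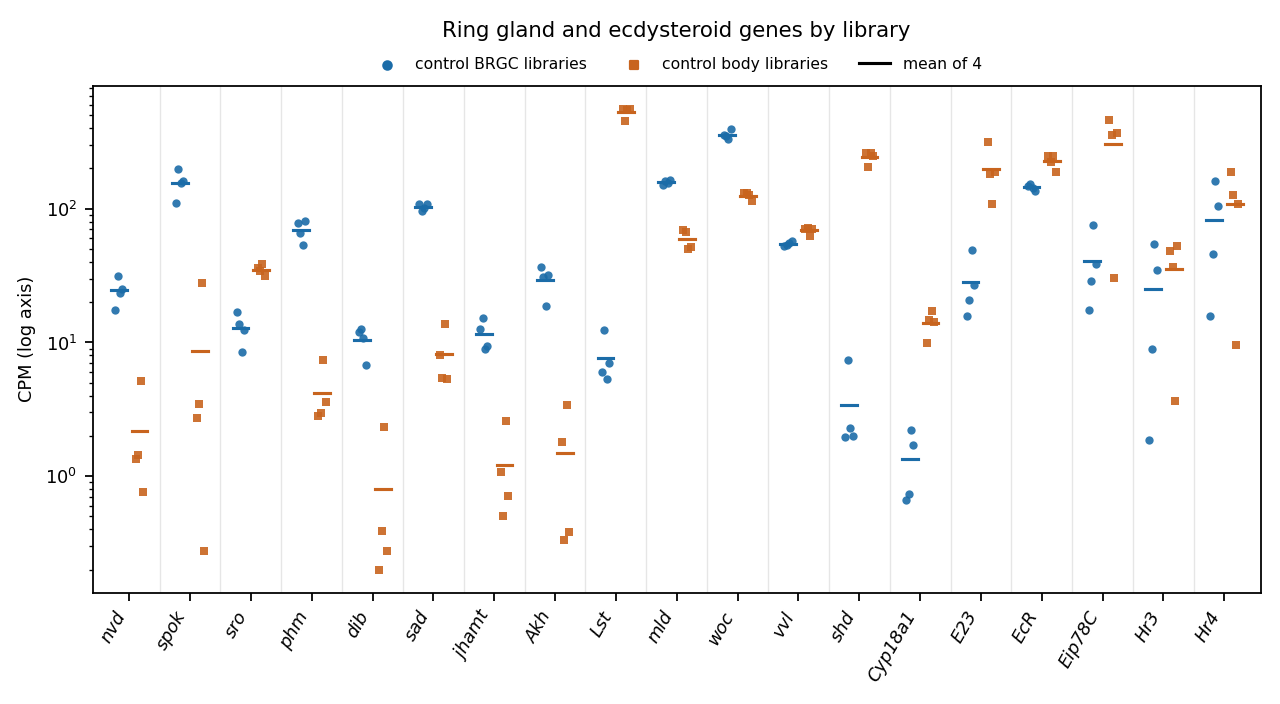
Level in CPM (log axis) of 19 ring gland and ecdysteroid genes in each control BRGC library (blue circles, left) and control body library (orange squares, right), with the mean of 4 as a bar. The synthesis enzymes nvd, spok, phm, dib and sad and the hormone gene Akh sit above the body, sro, Lst, shd, Cyp18a1 and E23 below it, and Hr3 and Hr4 spread widely within each tissue.

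Insulin-like peptides divided between the tissues. Ilp2, made by the insulin-producing cells of the brain, was listed only for the BRGC with 31.3, 28.6, 17.5 and 23.6 CPM, as were Ilp5 at a mean of 2.15 CPM and Ilp7 at 0.97 CPM. Ilp3 had 21.6, 21.9, 22.1 and 14.9 CPM in the BRGC libraries, against 3.87, 6.19, 10.9 and 8 CPM in the body libraries (log2 fold change 1.54 ± 0.31 (SE), adjusted p = 0.002), higher in every BRGC library but not beyond 2-fold. Ilp6, the peptide of the fat body, had 13, 18.8, 20.9 and 16.1 CPM in the BRGC libraries, against 186, 128, 167 and 219 CPM in the body libraries (log2 fold change -3.34 ± 0.20 (SE), adjusted p = 1.9e-06). Ilp8, known as a signal of growing discs, was listed only for the body at 2.31 CPM. The secreted decoy receptor gene Sdr (1.79 ± 0.16) was beyond 2-fold higher in the BRGC, the receptor gene InR was higher by 0.80 ± 0.24 and the binding protein gene ImpL2 lower by a log2 fold change of -0.52 ± 0.15. The calls of the last 2 were not stable, since ImpL2 turned to 0.06 with library size alone and InR lost its call without body libraries 3 and 4 (0.67, adjusted p = 0.084).

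More neuropeptide genes were higher than lower in the BRGC. Of 28 tested (among them the receptor gene NPFR), 14 were higher and 6 lower, 12 and 2 of them beyond 2-fold (median log2 fold change 1.07). FMRFa (5.34), Nplp1 (3.62), Dh44, a diuretic hormone of the brain (3.18), Gpb5 (3.21) and Proc (3.16) were among the higher ones. Dh44 had 48.7, 46.8, 47.9 and 52.4 CPM in the BRGC libraries, against 6.6, 8.25, 4.34 and 3.34 CPM in the body libraries. The 2 beyond 2-fold lower were CCHa2, a nutrient-dependent peptide made in fat body and gut, and Nplp4. CCHa2 had 4.4, 10, 3.71 and 4.5 CPM in the BRGC libraries, against 113, 110.1, 185 and 180.5 CPM in the body libraries (log2 fold change -4.75 ± 0.33 (SE), adjusted p = 4.3e-06), and Nplp4 had a log2 fold change of -4.21 ± 0.41. The peptide genes Tk (-1.73 ± 0.27), CCHa1 (-1.63 ± 0.29) and AstC (-0.94 ± 0.23) were lower without passing the 2-fold rule. Another 7 peptide genes were listed only for the BRGC, among them the neurosecretory genes Hug (12.6 CPM) and SIFa (11.9 CPM) and the eclosion hormone gene Eh (6.31 CPM). Ptth, the brain peptide that drives the prothoracic gland, was at 1.83 to 3.79 CPM in BRGC libraries and 0.164 to 3.9 CPM in body libraries and did not differ beyond its error (adjusted p = 0.42).

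Genes of neurons and synapses were higher in the BRGC almost throughout. Of 25 tested neuronal and vesicle genes 20 were higher and 18 passed the 2-fold rule, with a median log2 fold change of 3.50. The complexin gene cpx (4.51 ± 0.22), elav (4.21 ± 0.17), the microtubule protein gene futsch (4.01 ± 0.21), Cadps (3.83 ± 0.17) and Rab3 (3.50 ± 0.16) had the smallest p. The exception beyond 2-fold was Rbp9, an RNA-binding protein gene of the elav family, with 11.9, 14.3, 20.4 and 12.8 CPM in the BRGC libraries, against 50.8, 87, 141 and 113 CPM in the body libraries (log2 fold change -2.65 ± 0.31 (SE), adjusted p = 8.8e-05). Of 20 ion channel genes 13 were beyond 2-fold higher, and the 5 with the smallest p were the sodium channel genes para (3.73) and na (4.23), the calcium channel gene cac (3.25) and the potassium channel genes SK (2.84) and sei (2.1). The potassium channel gene KCNQ was beyond 2-fold lower, with 2.48, 1.2, 2.22 and 2.2 CPM in the BRGC libraries, against 58.7, 38.7, 49.1 and 34.9 CPM in the body libraries (log2 fold change -4.45 ± 0.27 (SE), adjusted p = 2.1e-06).

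Most transmitter receptors were higher in the BRGC, and those of muscle were lower. Of 29 tested receptor genes 22 were higher and all 22 passed the 2-fold rule, with a list median of 4.13. Of the 10 nicotinic acetylcholine receptor subunits 9 were beyond 2-fold higher, with nAChRbeta2 at 44.9, 38.1, 52.2 and 37.3 CPM in the BRGC libraries, against 2.6, 3.12, 1.39 and 1.1 CPM in the body libraries (log2 fold change 4.44 ± 0.33 (SE), adjusted p = 5.9e-06). All 4 tested subunits of the glutamate receptor of the neuromuscular junction were beyond 2-fold lower, between -3.68 for GluRIIE and -3.31 for GluRIIA. GluRIIA had 2.74, 3.49, 3.14 and 1.05 CPM in the BRGC libraries, against 27.3, 22.9, 28.7 and 19.5 CPM in the body libraries. A further subunit, GluRIIB, was listed only for the body (13.5 CPM). The NMDA-type receptor gene Nmdar2 (4.77 ± 0.32) and the inhibitory GABA-B-R2 (3.93 ± 0.16) were on the BRGC side.

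Of 15 tested enzymes and transporters of transmitters 10 were higher and 3 lower. The acetylcholine genes VAChT (5.11 ± 0.24), Ace (3.24 ± 0.20) and the choline transporter family gene CG7708 (4.18 ± 0.14) and the GABA genes Gad1 (4.53 ± 0.19) and Gat (3.06 ± 0.23) were beyond 2-fold higher in the BRGC, 9 of the 15 in all. Among the monoamine genes, the vesicular transporter gene Vmat (2.24 ± 0.39) was beyond 2-fold higher and the dopamine transporter gene DAT (1.62 ± 0.46) was higher. The 3 genes beyond 2-fold lower, ple, Ddc and Pu, make dopamine or its cofactor and also serve the tanning of cuticle. ple, the tyrosine hydroxylase gene, had 7.06, 15, 4.84 and 12.5 CPM in the BRGC libraries, against 3984, 3455, 17.3 and 5042 CPM in the body libraries (log2 fold change -6.86 ± 1.71 (SE), adjusted p = 0.0064), with body library 3 far below the other bodies, and the log2 fold change was -8.89 without it. Ddc (-4.96 ± 0.29) and Pu (-4.92 ± 0.27) were lower in every BRGC library than in any body library.

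Glial genes were mixed. Of 20 tested, 11 were higher and 5 lower, 9 and 2 of them beyond 2-fold. The pan-glial factor gene repo had 41.5, 31, 33.5 and 45.7 CPM in the BRGC libraries, against 1.53, 2.17, 0.637 and 1.37 CPM in the body libraries (log2 fold change 4.75 ± 0.34 (SE), adjusted p = 4.9e-06), and the astrocyte gene alrm (4.51 ± 0.27), the blood-brain barrier transporter gene Mdr65 (3.88 ± 0.15), zyd (3.28 ± 0.14) and the septate junction gene Nrx-IV (1.5 ± 0.10) were also higher. Both genes beyond 2-fold lower act in metabolism. Gs2, a glutamine synthetase gene used as an astrocyte marker, had 143, 111, 60.6 and 126 CPM in the BRGC libraries, against 1197, 961, 804 and 810.4 CPM in the body libraries (log2 fold change -3.15 ± 0.27 (SE), adjusted p = 1.2e-05), and the trehalose transporter gene Tret1-1 had a log2 fold change of -3.70 ± 0.33.

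Surface proteins that match neurons to each other were higher without exception in the Dscam, beat and side families. All 21 tested genes of these families were higher in the BRGC and all 21 passed the 2-fold rule, against 10.6% of all genes tested, with a range from 1.81 to 6.35. Of 21 tested DIP and dpr genes 18 were higher and 16 passed, among them dpr7 (4.28 ± 0.18), dpr8 (4.27 ± 0.25) and dpr12 (4.21 ± 0.26). Another 11 DIP and dpr genes and 4 of the Dscam, beat and side group were listed only for the BRGC, DIP-delta (20.6 CPM) and DIP-gamma (17.8 CPM) highest, and none of either group was listed only for the body.

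More neuroblast and progenitor genes were higher than lower in the BRGC. Where in the BRGC they were expressed was not tested. Of 25 tested neuroblast and progenitor genes 15 were higher and 4 lower, 11 and 1 beyond 2-fold. cas had 73.5, 56.6, 51.6 and 65.6 CPM in the BRGC libraries, against 1.13, 1, 0.116 and 0.658 CPM in the body libraries, and pros, the homeobox factor that ends neuroblast fate in the daughter cell, had 599, 888, 1312 and 756 CPM in the BRGC libraries, against 33.7, 20.4, 5.68 and 8.39 CPM in the body libraries (log2 fold change 5.97 ± 0.54 (SE), adjusted p = 1.8e-05). The asymmetric division genes mira (5.05 ± 0.21) and pon (2.17 ± 0.11) and the factor genes ase (5.02 ± 0.24) and nab (3.43 ± 0.17) behaved alike. The early temporal factor gene Kr was beyond 2-fold lower (-2.72 ± 0.17). Another 6 neuroblast genes were listed only for the BRGC, wor (40.3 CPM), erm (29.2 CPM) and tll (26.4 CPM) among them. All 13 tested Enhancer of split and Bearded genes, targets of Notch signalling, were higher, 11 beyond 2-fold, and E(spl)mgamma-HLH had 51.5, 51.4, 42.7 and 43.6 CPM in the BRGC libraries, against 2.87, 2.73, 2.2 and 2.74 CPM in the body libraries (log2 fold change 4.12 ± 0.15 (SE), adjusted p = 2.6e-07).

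Genes of the optic lobe and eye disc were higher in the BRGC. Of 15 tested optic lobe and eye genes 13 were higher and none lower, 9 beyond 2-fold. The retinal determination genes dac (2.63 ± 0.22), eya (3.61 ± 0.43) and so (2.25 ± 0.14) and the photoreceptor gene chp (4.06 ± 0.15) were among them. A further 8 were listed only for the BRGC. The Pax6 gene ey had 72.3, 71.9, 66.8 and 70.5 CPM there, and gl, a photoreceptor factor gene, had 48.5, 48.7, 38.9 and 48.4 CPM. lz, known both in eye and in blood, had 12.6, 15.6, 14.3 and 18.1 CPM in the BRGC libraries, against 0.733, 0.334, 0.521 and 0.987 CPM in the body libraries (log2 fold change 4.46 ± 0.31 (SE), adjusted p = 4.6e-06). Many of these genes are used in both optic lobe and eye disc, and which tissue they came from was not tested.

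Hox genes, which give segments their identity, followed their order along the body axis, apart from lab. Scr, at the anterior end of those compared with a call, was beyond 2-fold higher in the BRGC, Antp was slightly higher, and Ubx, abd-A and Abd-B were lower, Ubx the least. Scr (chromosome arm 3R, 6823120 to 6849981) had 59.3, 69.8, 114 and 95.7 CPM in the BRGC libraries, against 18.8, 12.2, 7.59 and 4.28 CPM in the body libraries (log2 fold change 3.13 ± 0.43 (SE), adjusted p = 0.00023). Antp (6896253 to 6999228 on the same arm) had 44.8, 59.2, 57.4 and 57.7 CPM in the BRGC libraries, against 48.3, 41.3, 36 and 44.2 CPM in the body libraries (log2 fold change 0.37 ± 0.13 (SE), adjusted p = 0.032), and its call was lost without any 1 of 6 of the 8 libraries. Ubx (16656623 to 16734426) had 11, 11.3, 18.2 and 12.4 CPM in the BRGC libraries, against 39.5, 32, 25.5 and 38.7 CPM in the body libraries (log2 fold change -1.36 ± 0.21 (SE), adjusted p = 0.00042). abd-A (16807214 to 16830049) had 19.6, 15.1, 43 and 17.3 CPM in the BRGC libraries, against 182, 145, 90.7 and 192 CPM in the body libraries (log2 fold change -2.75 ± 0.36 (SE), adjusted p = 0.00016), and Abd-B (16927212 to 16972236) had 6.34, 5.61, 11.6 and 4.83 CPM in the BRGC libraries, against 58.6, 46.6, 38.7 and 51.5 CPM in the body libraries (log2 fold change -2.84 ± 0.27 (SE), adjusted p = 2.6e-05). abd-A and Abd-B passed the 2-fold rule and neither overlapped between tissues, although BRGC library 3 lay above the other BRGC libraries in both. The head genes Dfd (7.09, 7.37, 6.25 and 7.27 CPM) and pb (3.06, 2.08, 3.99 and 2.13 CPM) were listed only for the BRGC, and lab did not differ beyond its error (0.05 ± 0.25, adjusted p = 0.88).

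**Figure D4:**
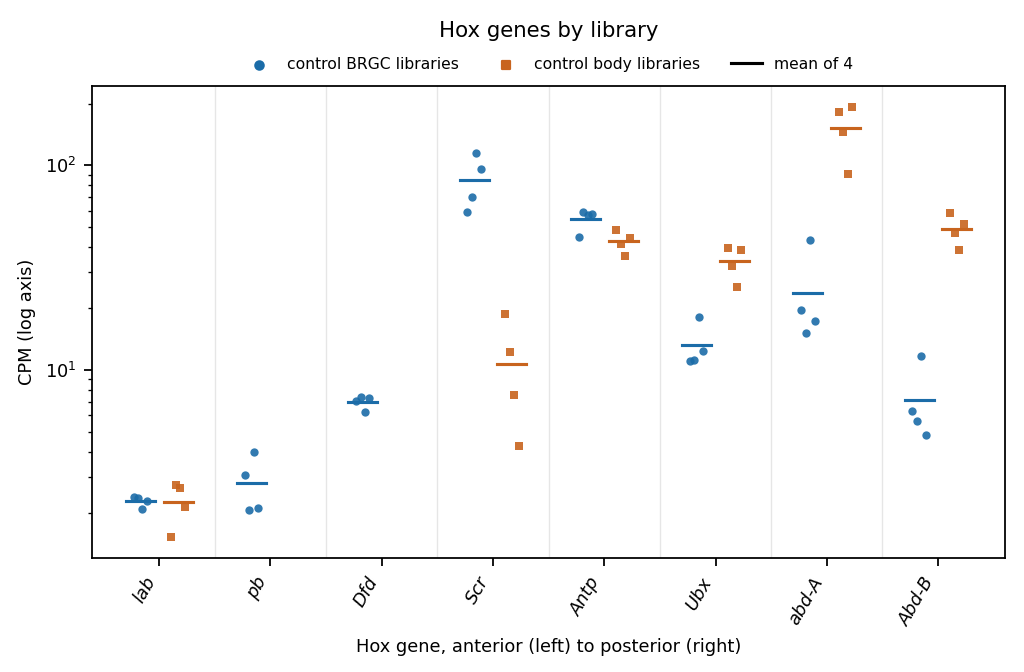
Level in CPM (log axis) of the 8 Hox genes from anterior (left) to posterior (right) in control BRGC libraries (blue circles, left of each pair) and control body libraries (orange squares), with the mean of 4 as a bar. Dfd and pb have no body values because they were listed only for the BRGC. Scr is above the body in every BRGC library, and Ubx, abd-A and Abd-B are below it in every one.

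Other regulators went different ways by list. Among the 5 POU-domain genes, pdm3 had 123, 114, 118 and 139 CPM in the BRGC libraries, against 26.1, 21.8, 13.4 and 14.6 CPM in the body libraries (log2 fold change 2.75 ± 0.21 (SE), adjusted p = 7.7e-06), beyond 2-fold, and acj6 was higher (3.52 ± 1.16) with body levels from 0 to 5.13 CPM. Without body library 4, which held 0 reads of it, the log2 fold change of acj6 was 2.24 and it passed the 2-fold rule, and without BRGC library 3 its call was lost (3.39, adjusted p = 0.056). nub (-0.92 ± 0.12) and pdm2 (-1.40 ± 0.27) were lower. None of 18 tested nuclear receptor genes passed the 2-fold rule, with 1 higher and 8 lower by the first rule, and without body library 3 there was 1 that passed. Of 25 disc patterning genes 18 were higher and 2 lower, and the 6 beyond 2-fold (13 with library size alone) were bab1 (2.27 ± 0.25), bi (2.07 ± 0.10), rn (1.96 ± 0.13), Dll (1.91 ± 0.11), ptc (1.82 ± 0.13) and ss (1.83), while the wing gene vg was lower (-1.20).

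DNA replication and cell cycle genes were higher in the BRGC. Of 32 tested 28 were higher and none lower, with a median log2 fold change of 1.41, and 17 passed the 2-fold rule (9 without BRGC library 1, and 10 or 11 without BRGC library 2 or 4 or body library 1 or 3, and 27 with library size alone). stg, the Cdc25 phosphatase that triggers mitosis, had 147, 159, 123 and 159 CPM in the BRGC libraries, against 24.4, 24.2, 24.7 and 30.1 CPM in the body libraries (log2 fold change 2.5 ± 0.12 (SE), adjusted p = 6.9e-07). The replication helicase genes Mcm2 (1.96 ± 0.15), Mcm7 (1.90 ± 0.15) and dpa (1.71 ± 0.13) and the cyclin gene CycA (1.53 ± 0.11) were also beyond 2-fold.

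The body was marked by muscle, fat body and gut. Of 25 tested muscle genes 23 were lower in the BRGC, 20 beyond 2-fold, with a median log2 fold change of -5.17. Zasp66, a Z-disc protein gene, had 9.8, 10.7, 7.42 and 3.85 CPM in the BRGC libraries, against 1574, 1337, 1266 and 1525 CPM in the body libraries (log2 fold change -7.57 ± 0.29 (SE), adjusted p = 3.3e-07), and the LIM protein gene Mlp84B (-7.50 ± 0.23), the troponin C gene TpnC73F (-6.16 ± 0.20), Prm (-6.12 ± 0.27) and tn (-5.46 ± 0.13) followed. The single muscle-list gene beyond 2-fold higher was mspo (2.97 ± 0.16), which encodes a spondin. Muscle transcripts were unequal among bodies, as in the muscle actin gene Act57B with 63.9, 62.4, 41.7 and 45.8 CPM in the BRGC libraries, against 1053, 1589.5, 3924 and 1769 CPM in the body libraries.

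Fat body genes were lower in the BRGC but uneven among libraries. Of 23 tested 16 were lower and 2 higher, 7 and 0 beyond 2-fold. Fbp1 had 18.6, 4.83, 10.8 and 221 CPM in the BRGC libraries, against 35835, 23687, 21953 and 32999 CPM in the body libraries (log2 fold change -10.34 ± 1.02 (SE), adjusted p = 3e-05). Lsp1beta, a subunit of a larval serum protein, had 19.3, 2885, 9.23 and 118 CPM in the BRGC libraries, against 1973, 3151, 15755 and 2084 CPM in the body libraries (log2 fold change -5.41 ± 1.68 (SE), adjusted p = 0.018), so that BRGC library 2 lay within the range of the bodies and the other BRGC libraries far below. Without BRGC library 2 its log2 fold change was -7.09 (adjusted p = 0.00062), and without BRGC library 1 it was -4.68 (adjusted p = 0.053). The lipid droplet gene Lsd-1 (-5.31 ± 0.28) and the lipase gene bmm (-2.73 ± 0.20) were lower, and FASN1 (-0.52 ± 0.51) and ACC (0.08 ± 0.37), which build fatty acids, did not differ beyond their error. The 2 higher genes, the yolk protein genes Yp1 (log2 fold change 3.50 ± 1.3 (SE), adjusted p = 0.039) and Yp2 (log2 fold change 2.99 ± 0.97 (SE), adjusted p = 0.023), are near copies of each other and are known from adult females. Yp1 had 1.71, 0.67, 21.4 and 0.71 CPM in the BRGC libraries, against 0, 0, 1.33 and 0.0548 CPM in the body libraries, so that most of its BRGC reads lay in library 3, and its call was lost without that library (2.39, adjusted p = 0.079), as it was without BRGC library 1 or body library 1, 2 or 4.

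Gut, tubule and detoxification genes were lower in the BRGC with few exceptions. All 18 tested midgut genes were lower, 16 beyond 2-fold, with a median of -9.80, and 27 more were listed only for the body. Of 56 tested genes of the cytochrome P450 list 46 were lower and 2 higher, 33 and 2 beyond 2-fold. That list leaves out the ecdysone synthesis genes spok, phm, dib and sad, described above as higher in the BRGC. Cyp6g1, known for insecticide resistance, had 1.09, 0.953, 1.17 and 1.35 CPM in the BRGC libraries, against 150.0, 106, 136 and 128 CPM in the body libraries (log2 fold change -6.73 ± 0.16 (SE), adjusted p = 9.2e-08). The 2 higher genes of the list were Cyp4g15 (5.50 ± 0.22) and Cyp6g2 (4.76 ± 0.55). Of 27 glutathione S-transferase genes 16 were lower and 6 higher, 9 and 2 beyond 2-fold, and GstZ2 led the higher ones with 297, 309.6, 366 and 309.9 CPM in the BRGC libraries, against 17.2, 11.6, 13.2 and 11.6 CPM in the body libraries (log2 fold change 4.58 ± 0.14 (SE), adjusted p = 1.5e-07). Tubule transporters such as NaPi-T (-4.55 ± 0.33), the water channel gene Drip (-4.18 ± 0.25) and Irk2 (-3.69 ± 0.21) were lower, 8 of 17 tested beyond 2-fold, and ct, a homeobox gene of tubules and sense organs, was higher (2.13 ± 0.17).

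V-ATPase subunits were mostly lower in the BRGC. Of 21 tested subunits 17 were lower in the BRGC, 14 beyond 2-fold (2 with library size alone), with a median of -1.55 and Vha26 (-1.39 ± 0.11) and VhaAC45 (-1.74 ± 0.15) as examples. VhaM9.7-a (4.30 ± 0.38) and CG31030 (3.80 ± 0.20) were beyond 2-fold higher. Odorant-binding protein genes divided likewise. Obp44a, abundant in brain glia, had 1774, 915, 929 and 1464 CPM in the BRGC libraries, against 71.3, 121, 23 and 26 CPM in the body libraries (log2 fold change 4.67 ± 0.53 (SE), adjusted p = 7.2e-05) and Obp99a was higher too (3.34 ± 0.42), while Obp56d (-8.89 ± 0.62), Obp99b (-7.40 ± 0.71), Obp99c (-7.01 ± 0.84) and Obp56a (-3.36 ± 0.50) were lower.

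Cuticle and antimicrobial transcripts were mostly lower in the BRGC. Of 25 tested cuticle protein genes 16 were lower and 2 higher, 12 and 0 beyond 2-fold, and another 30 were listed only for the body. Cpr49Ac had 50.2, 79.4, 164 and 102 CPM in the BRGC libraries, against 12684, 6536, 4998 and 5041 CPM in the body libraries (log2 fold change -6.22 ± 0.41 (SE), adjusted p = 3.3e-06). Of 8 antimicrobial peptide genes 7 were lower, 5 beyond 2-fold, and 10 more were listed only for the body. DptA, a diptericin, had 0, 0.106, 0.0403 and 0.0676 CPM in the BRGC libraries, against 17.7, 16.7, 412 and 437 CPM in the body libraries (log2 fold change -9.33 ± 1.16 (SE), adjusted p = 0.00012), so the body libraries fell into a lower and a higher pair while every BRGC library stayed near 0. Only 1 antimicrobial peptide gene passed the 2-fold rule with voom weights in place of the intensity trend, and DptA then had an adjusted p of 0.15. Hemocyte genes were more mixed, with 8 lower, 2 higher and 11 not called of 21 tested. Over all genes tested, 32.6% were lower and 37.4% higher. NimC2, a phagocytic receptor gene, had 1.89, 3.32, 3.1 and 4.9 CPM in the BRGC libraries, against 455, 313, 251 and 348 CPM in the body libraries (log2 fold change -6.70 ± 0.29 (SE), adjusted p = 4.9e-07), and crq (-2.05 ± 0.13) and the ferritin gene Fer1HCH (-1.86 ± 0.12) were lower. The plasmatocyte gene Hml (0.57) and the basement membrane genes Col4a1 (-0.35) and vkg (0.13) passed neither rule. Of 20 tracheal genes 4 were higher and 7 lower, only pk beyond 2-fold (2.28 ± 0.18), and their median was -0.01.

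Several housekeeping groups lay near the median of all genes, which was 0.06 with TMM scaling and 0.64 with library size alone. Their values depend on the scaling and give no independent scale for the other differences. None of 87 tested cytoplasmic ribosomal protein genes, 72 mitochondrial ribosomal protein genes and 65 nuclear oxidative phosphorylation genes passed the 2-fold rule, and their medians were 0.19, 0.31 and -0.17. Another 5 cytoplasmic ribosomal protein genes and 20 oxidative phosphorylation genes were listed only for the body and were not tested. Without body library 4 there were 2 ribosomal protein genes and 1 oxidative phosphorylation gene beyond 2-fold lower, and with library size alone 3 mitochondrial ribosomal protein genes beyond 2-fold higher. Transcripts of the mitochondrial genome were lower in the BRGC in 19 of 21 tested, 10 beyond 2-fold, with a median of -1.68 and a share of reads of 2.09 to 4.45% in BRGC libraries and 6.34 to 9.52% in body libraries. The number beyond 2-fold fell to 5 or 6 without BRGC library 1, 3 or 4 or body library 3 or 4 and to 3 with library size alone, and no library changed the direction of mt:lrRNA. Of 10 common reference genes 3 were higher, 3 lower and 4 not called. RpL32 (0.13 ± 0.14), eEF1alpha1 (-0.18 ± 0.24) and SdhA (0.10 ± 0.23) were among the last, while 14-3-3epsilon (1.06 ± 0.10) and Tbp (0.93 ± 0.12) were higher and eIF1A (-0.61 ± 0.06), Su(Tpl) (-0.63 ± 0.15) and Gapdh1 (-0.95 ± 0.30) lower. With library size alone eIF1A, Su(Tpl) and Gapdh1 lost their calls, and RpL32 (0.71), SdhA and Act5C gained one. Act5C was not called (log2 fold change 0.30 ± 0.16 (SE), adjusted p = 0.12), with 5079, 4657, 5349.8 and 5130.3 CPM in the BRGC libraries, against 4333, 3866, 3760.2 and 4462 CPM in the body libraries. Every BRGC library was nonetheless above every body library. Act5C was called higher with voom weights (0.30, adjusted p = 0.022) and with library size alone (0.88, adjusted p = 0.0011), so it cannot be taken as equal in the tissues. Among tubulins, betaTub56D (1.13 ± 0.18) and alphaTub84B (0.82 ± 0.20) were higher and alphaTub85E was lower (-1.57 ± 0.18), though alphaTub84B and alphaTub84D are near copies whose reads the counting could split.

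**Figure D5:**
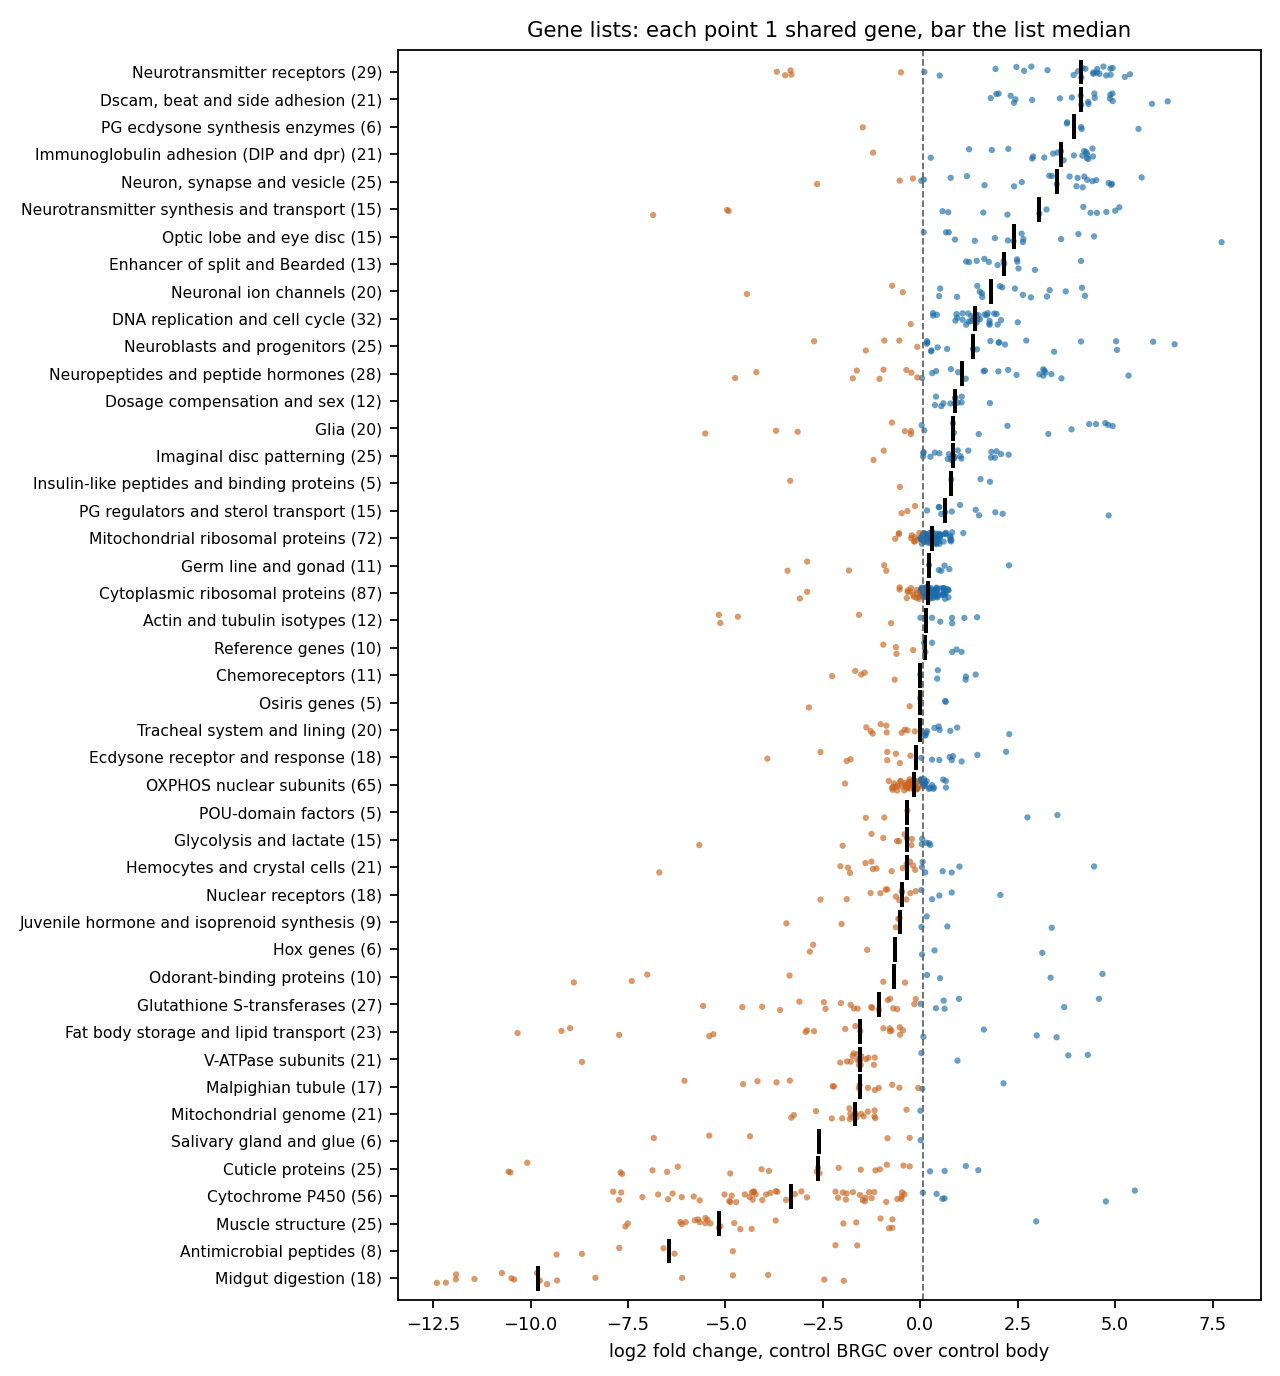
Log2 fold change of control BRGC over control body (x axis) for the tested members of each gene list with at least 5 of them (y axis, number tested in parentheses), with the list median as a black bar and the median of all 9256 genes as a dashed line at 0.06. Neuronal receptor and adhesion lists and the prothoracic gland enzymes lie farthest to the right, with the glutamate receptors of muscle and sro as points to the left, and midgut, antimicrobial and muscle lists farthest to the left.

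Genes listed for a single tissue have no value in the other and were not tested. In each table every gene had at least 1 library above 1 CPM (lowest 1.01 in both), counting its control and dfr14 libraries together. A gene missing from a table may thus still have had some reads, and a listed gene may have had none in controls. In all 4 control libraries 0 reads were found for 2 genes listed only for the BRGC and 8 listed only for the body. A control mean of at least 1 CPM was reached by 275 of the 475 BRGC genes and 2880 of the 3253 body genes. The 475 genes of the BRGC table alone took 0.41 to 0.51% of BRGC reads, and 71 of them had a mean of at least 10 CPM. Apart from br and CanA-14F, which carry unlike IDs in the tables, the highest were CG34377 (251 CPM), ey (70.4 CPM), Ets65A (46.1 CPM), gl (46.1 CPM), ru (41.1 CPM), dan (40.9 CPM), wor (40.3 CPM) and tap (36.9 CPM), most of them regulators of eye or neural development. The 3253 genes of the body table alone took 4.45 to 11.3% of body reads, and 1481 had a mean of at least 10 CPM. Its highest genes were CG9682 (2429 CPM), Sgs5, CG12934 (1606 CPM), CG31789 (1531 CPM), CG6933 (1530.5 CPM) and CG7953 (1219 CPM), followed by Jon65Ai, CG6296, Mur29B and br. Sgs5, a glue protein gene of the salivary gland, had 1.4, 6.63, 6659 and 784 CPM in the body libraries. Testis genes form another part of this group. Of 23 measured sperm and male germ line genes 19 were listed only for the body, and of the 4 tested none passed either rule. The testis tubulin gene betaTub85D had 2.16, 2.36, 3.59 and 2.33 CPM in the BRGC libraries, against 519.8, 768, 272 and 0.11 CPM in the body libraries (log2 fold change -4.68 ± 2.41 (SE), adjusted p = 0.11), and without body library 4 its log2 fold change was -7.49 (adjusted p = 3.1e-06), and 3 of the 4 tested genes were then beyond 2-fold lower.

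Genes beyond 2-fold higher in the BRGC were longer by their medians. The median gene length was 7315 bases for the genes beyond 2-fold higher and 2806 bases for those beyond 2-fold lower, against 2956 bases over all shared genes (98.4% had a length in the annotation). Genes over 20000 bases made up 30.3% of the higher, 5.88% of the lower and 9.97% of all shared genes. Genes of the X chromosome were 17.6% of the higher, 11.8% of the lower and 16.2% of all shared genes, with a median log2 fold change of 0.29 on the X, against -0.06 to 0.07 on the 4 large autosome arms. Of 87 tested genes on chromosome 4, 22 were beyond 2-fold higher and 9 lower. Body library 4 held no reads of the 12 genes of the Y-linked list, and the sexes in each library are not stated. The part of sex in the values of the X was not tested.

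The same contrast in dfr14 larvae, whose 8 libraries share none with the controls, gave 841 genes beyond 2-fold higher and 1444 lower in the BRGC (9.09% and 15.6% of 9256). Of the 980 genes beyond 2-fold higher in controls, 740 (75.5%) were also beyond 2-fold higher in dfr14, which is 88.0% of the dfr14 list, and of the 1345 lower ones 1149 (85.4%) were also lower, 79.6% of the dfr14 list. No gene beyond 2-fold in controls was called in the opposite direction in dfr14, by either rule. Side by side, the log2 fold changes in dfr14 and in control larvae were 6.05 and 5.60 for spok, 5.58 and 4.13 for phm, 2.84 and 3.76 for sad, -2.19 and -1.48 for sro, -6.46 and -6.17 for Lst and 4.66 and 3.13 for Scr. Whether a gene's tissue difference changed with the genotype was not tested here.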

How the data were processed

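RNA was poly-A selected and sequenced as stranded libraries. By the methods, Trim Galore was used for trimming, STAR for alignment and featureCounts with BDGP6 for counting. The authors deposited log2 CPM values (prior count of 2, TMM scaling in edgeR) in a table for each tissue. Tool versions are not given in the sources used here. The tables also hold the authors' own comparison columns (fold changes, F, p-values, FDR), which were not used, nor were 16 further columns of per-sample values.

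Reads were recovered from the deposited log2 values by removing the prior count (100% of values whole within 0.05 reads), joined by gene ID and rescaled by TMM over the 8 control libraries. Log2 CPM with a prior count of 2 was tested in limma 3.58.1 under R 4.3.3, with the prior variance following the mean level, and with limma treat for 2-fold, with Benjamini-Hochberg adjustment over 9256 genes. The fit was tested on simulated data. Log2 fold changes understate the change of genes with few reads, and p-values measure the spread between these libraries. Alternatives were RLE factors, library size alone, a prior count of 0.5, at least 10 reads in 4 libraries, voom weights, library quality weights, the union of the tables with 0 reads for missing genes, and leaving out each library. Leaving out body libraries 3 and 4 together was added after seeing the data.

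The gene lists and members were chosen with earlier results of these data known. Named genes are the 12 largest differences per direction beyond 2-fold with at least 20 CPM in the higher tissue and no overlap, the 10 highest genes per tissue and per single table, up to 5 members per list and direction with the smallest p beyond 2-fold, members beyond 2-fold against their list's median, all members of the ring gland enzyme, corpora cardiaca, ecdysteroid conversion, insulin, Hox, POU, actin, tubulin and reference lists, and markers of other tissues. Outside this rule, and after their values were seen, the following were added: AstC, CCHa1, Tk, FMRFa, Ptth, Hug, SIFa, Eh, EcR, usp, Eip78C, Hr3, Hr4, DIP-delta, DIP-gamma, GluRIIB, Hml, Col4a1, vkg, dac, eya, erm, tll, ss, vg, Vmat, DAT, mle, msl-1 and tra. The 52 lists are described by counts and medians without a set test. Positions and lengths are from Ensembl BDGP6.54, which held 9104 of the 9256 shared IDs. Figures were drawn with matplotlib 3.10.9.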

Additional observations from a re-analysis of the deposited data

Results flagged for a closer look

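Among 147 groups of 4 libraries checked for a value far from the others (Dixon's test at 95%), 23 (15.6%) held one. Chance gives about 1 in 20 for independent groups. These groups share the same libraries, and some overlap, such as Lsp1beta and the summed fat body list. The count therefore cannot be weighed against that rate. Body library 3 held 9 of them, BRGC library 3 held 5, BRGC library 2 held 4 and BRGC library 4 held 2. What sets these libraries apart was not tested.

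Body library 3 stood above the other bodies for the ecdysone enzymes nvd (5.15 CPM), spok (27.9 CPM), phm (7.41 CPM) and dib (2.32 CPM), which are otherwise low in bodies. It was also highest for the serum protein gene Lsp1beta (15755 CPM), Yp1 (1.33 CPM), the glue gene Sgs5 (6659 CPM) and the summed salivary gland and glue genes (18354 CPM). It was lowest for vvl (62.8 CPM). Values without this library are given above for spok. In body library 2 Lst was at 455 CPM, lowest of its tissue, and in body library 4 stg was at 30.1 CPM, highest of its tissue.

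BRGC library 2 was highest of its tissue for genes of fat body or periphery, namely Lsp1beta (2885 CPM), the summed fat body list (8586 CPM), shd (7.45 CPM) and CCHa2 (10.02 CPM). BRGC library 3 was highest for yip7 (7.58 CPM), Yp1 (21.4 CPM), abd-A (43.0 CPM) and betaTub85D (3.59 CPM), and lowest for gl (38.9 CPM). BRGC library 4 was highest for Fbp1 (221 CPM) and lowest for Ilp3 (14.9 CPM), and BRGC library 1 was lowest for Antp (44.8 CPM).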

How the results depend on the processing

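Of 294 named genes tested, 247 kept their direction and their side of the threshold under all 16 alternatives. With library size alone GNBP3 (0.13), ImpL2 (0.055), Mtp (0.053) and vvl (0.25) turned to higher, the lower genes numbered 1907 and those beyond 2-fold higher 2258. RLE factors gave 3167 higher and 3223 lower genes. Over the union of 12984 genes with 0 reads for a missing gene, 6266 genes were lower and 9998 called in either direction, and 4050 were lower and 5451 in either direction beyond 2-fold, because more genes entered. Leaving out 1 library gave 3177 to 3385 higher, 2749 to 3181 lower and 5961 to 6566 in either direction, and beyond 2-fold 862 to 941 higher, 1195 to 1507 lower and 2057 to 2448 in either direction. Without body libraries 3 and 4, an alternative chosen after seeing the data, 3439 genes were higher and 3296 lower. No paired analysis was possible because the columns carry no replicate numbers and BRGCs and bodies came from different larvae. Depth limits genes of few reads, such as acj6 and Ptth, most.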

Other observations

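Of 12 genes of dosage compensation and sex determination 9 were higher in the BRGC and none lower, none beyond 2-fold, with a median log2 fold change of 0.89. msl-1 (0.88 ± 0.08, SE), mle (0.89 ± 0.11) and tra (1.06 ± 0.14) were among them. Of 15 glycolysis genes none was higher and 5 were lower, and Tps1, which makes the blood sugar trehalose, was beyond 2-fold lower (-5.67 ± 1.1). Of 11 germ line and gonad genes 2 were higher and 4 lower, with tj (2.28 ± 0.33) beyond 2-fold higher and piwi (-1.83 ± 0.21) and zpg (-2.90 ± 0.65) beyond 2-fold lower. The lower count of 2 fell to 1 without BRGC library 1, 2 or 4 or body library 1 or 2, and to 0 with library size alone. Of 6 salivary gland and glue genes 3 were lower, and 9 more were listed only for the body.

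Chemoreceptor genes divided, with 4 higher, 2 lower and 5 not called of 11 tested, and Gr28b was beyond 2-fold lower (-2.26 ± 0.37). This count of 1 fell to 0 without body library 1 and with library size alone, and was 4 without body library 4. Of 5 Osiris genes 1 was higher and 1 lower, Osi17 beyond 2-fold (-2.86 ± 0.35), and both tested Tweedle genes were higher. All 6 measured lysozyme genes were listed only for the body, though not all were expressed in controls. LysS and LysX had means of 161 and 141 CPM in the control body libraries. LysB had a mean of 2.41 CPM, with 8.92 CPM in body library 3. LysE and LysD had means of 0.51 and 0.10 CPM, and LysC had 0 reads in all 4 libraries. Of 214 tested non-coding loci 52 were higher and 60 lower, 16 and 25 beyond 2-fold, while 101 were listed only for the BRGC and 656 only for the body.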
